A study of Sus scrofa with 4 samples.

Results

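The genes of the major histocompatibility complex (MHC) class II and the invariant chain CD74 were read in spleen RNA of miniature pigs on a porcine Agilent oligonucleotide array. The members were SLA-DRA, SLA-DRB1, SLA-DQA1, SLA-DQB1, SLA-DMA, SLA-DMB, SLA-DOA, SLA-DOB and CD74, where SLA stands for swine leukocyte antigen. They were found as probes whose transcript accession belonged to 1 of these genes. All 9 had a probe, with 32 probes in all, of 33464 probes tested and of 3020 genes named on the array. The series held 4 arrays of spleen from Minnesota miniature swine. The WT group was 3 arrays of wildtype spleen, called WT 1, WT 2 and WT 3 after their titles. The other group was 1 array of spleen with the genotype IL2RG +/-, called KO here. IL2RG encodes the common gamma chain of several interleukin receptors. A single allele was disrupted with TALEN nucleases in cultured cells, and the pigs were cloned from such cells by nuclear transfer. The labels give neither age nor sex, and they call the WT arrays independent experiments without saying whether these are separate animals, so the p values measure only the spread among those 3 arrays.

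Class II molecules are pairs of an alpha and a beta chain that carry peptides of engulfed proteins to CD4 T cells. In the spleen they are displayed mainly by B cells, dendritic cells and macrophages. CD74 fills the peptide groove of the new pair and guides it to the endosome, where DM exchanges the last fragment of CD74 for a peptide and DO restrains DM. Transcription of these genes depends on the transactivator CIITA, which interferon gamma induces in many cells.

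Expression is given as log2 signal, with 0 at the 75th percentile of each array, and a gene is read by its brightest probe over the 4 arrays unless another is named. Differences are those of KO from the mean of the 3 WT arrays. WT 1 is also used alone, since WT 1 and KO shared slide 1 while WT 2 and WT 3 shared slide 2. Slides were also scanned on separate days, so slide and scan are 1 batch. The share of spots well above background lay between 66.1% and 72.7% on the 4 arrays, and no spot was saturated. IL2RG was lowest on KO on both of its probes, while 34.8% of all probes tested had KO below every WT array. The brighter gave -0.65, -1.50 and -1.49 on WT 1, WT 2 and WT 3 and -1.98 on KO. The other gave -1.18, -2.12, -2.19 and -3.95 on the same arrays. KO differed from the WT mean by -0.77 and -2.12 (limma, adjusted p of 0.580 and 0.403). The 8 spleen marker genes measured of the 18 listed exceeded background on every array, and the other genes of that list, TLX1 among them, were not analysed here. Of these 8, the lymphoid homing chemokine CCL21 stood out, at 1.38 ± 0.33 (SD, n = 3) in WT and -0.80 on KO. VSIG4, a macrophage receptor gene in the same list, was picked out after its values were seen. Its brightest probe set WT 1 apart at -0.89, while WT 2 had 7.20, WT 3 had 6.37 and KO had 4.64. KO minus the WT mean ran from 0.41, for this brightest probe, to 5.36 over its 5 probes, so its probes disagreed. Whether the other VSIG4 probes set WT 1 apart was not tested.

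Nearly every class II probe was brightest on KO. KO lay above all 3 WT arrays on 30 of the 32 member probes, which compares with 27.1% of all probes tested. The same 30 probes were at least 2-fold higher on KO, with 7.74% of all probes tested, and they belonged to 8 of the 9 genes. The exception was SLA-DOB, whose 2 probes were lower on KO than on every WT array, where 34.8% of all probes lay. No member passed the limma threshold of an adjusted p of 0.05 with a 2-fold difference, a count of 0, and 0% of all probes passed it. Before adjustment, 27 member probes had a limma p under 0.05 and a 2-fold higher signal, with 4.49% of all probes tested. With 1 KO array, an exact permutation test over arrays cannot give a p below 0.25.

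**Figure D1:**
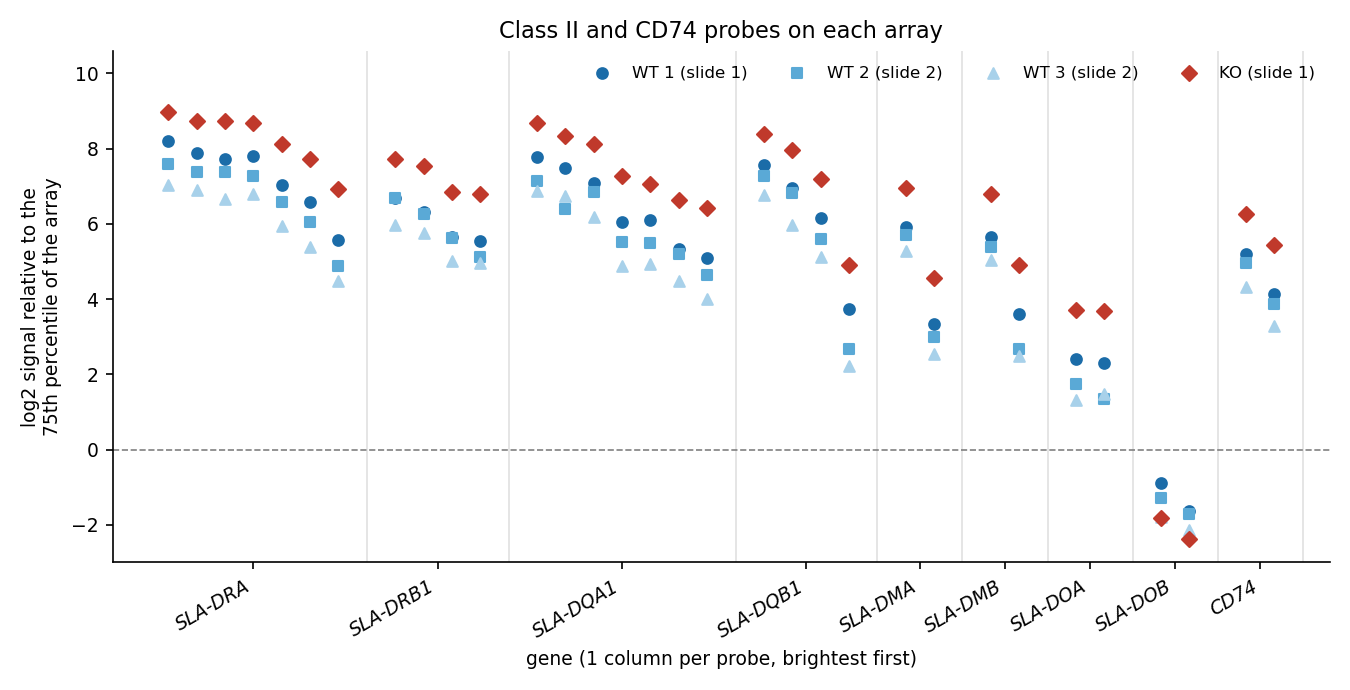
Log2 signal of the 32 member probes scaled to each array's 75th percentile (y axis), with 1 column per probe, grouped by gene and ordered from the brightest probe. Each point is 1 array. KO is the highest point in 30 columns and the lowest in the 2 columns of SLA-DOB.

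The DR chains form a class II molecule that presents peptides. SLA-DRA, the alpha chain, had 7 probes. Its brightest gave 8.19, 7.58 and 7.04 on WT 1, WT 2 and WT 3 and 8.97 on KO. KO stood above the group, and the WT arrays spread from the highest on WT 1 to the lowest on WT 3. KO differed from the WT mean by 1.37 (standard error 0.54), or 2.58-fold (limma, adjusted p = 0.466). Over its 7 probes the difference ran from 1.36 to 1.95. Within slide 1 KO exceeded WT 1 by 0.78 on the brightest probe and by 1.36 at most. SLA-DRB1, the polymorphic beta chain that pairs with it, had 4 probes. The brightest gave 6.68, 6.68 and 5.98 on WT 1, WT 2 and WT 3 and 7.72 on KO. WT 1 and WT 2 were level, and KO did not overlap with WT. Its distance from the WT mean was 1.27 (standard error 0.42), or 2.41-fold (limma, adjusted p = 0.434). The 4 probes ranged from 1.27 to 1.56, and within slide 1 from 1.04 to 1.24. The lowest adjusted limma p among all member probes, 0.394, belonged to 1 of these probes.

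The DQ chains form another presenting class II molecule. SLA-DQA1, the alpha chain, had 7 probes, of which the brightest gave 7.78, 7.13 and 6.86 on WT 1, WT 2 and WT 3 and 8.67 on KO. KO was above all WT arrays, and the distance from WT 1 was less than 2-fold, at 0.89. The difference from the WT mean was 1.42 (standard error 0.47), or 2.67-fold (limma, adjusted p = 0.434). The other 6 probes lay between 1.43 and 1.85. SLA-DQB1, the beta chain, had 4 probes, and the brightest gave 7.56, 7.27 and 6.77 on WT 1, WT 2 and WT 3 and 8.39 on KO. Its order of arrays was that of SLA-DRA. KO differed from the WT mean by 1.19 (standard error 0.42), or 2.28-fold (limma, adjusted p = 0.443), the smallest of the 30 higher probes. The dimmest SLA-DQB1 probe gave the largest, with 3.73, 2.67 and 2.21 on WT 1, WT 2 and WT 3 and 4.90 on KO. The distance of KO from the WT mean was 2.03 (standard error 0.69, limma adjusted p = 0.438), and the probe also had the largest WT SD of the members, 0.78.

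CD74, which encodes the invariant chain and lies on another chromosome than the class II genes, gave 5.19, 4.97 and 4.31 on WT 1, WT 2 and WT 3 and 6.27 on KO. KO again did not overlap with WT. KO differed from the WT mean by 1.45 (standard error 0.46), or 2.72-fold (limma, adjusted p = 0.431), and from WT 1 by 1.08. The second CD74 probe differed by 1.68, and by 1.31 from WT 1.

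SLA-DMA and SLA-DMB encode the chains of DM, the peptide exchanger. SLA-DMA gave 5.92, 5.70 and 5.27 on WT 1, WT 2 and WT 3 and 6.94 on KO, and SLA-DMB gave 5.64, 5.39, 5.05 and 6.78 on the same arrays. In both genes WT 1 was the highest WT array and KO was clear of it. The differences were 1.31 (standard error 0.38) for SLA-DMA (limma, adjusted p = 0.419) and 1.42 (standard error 0.36) for SLA-DMB (limma, adjusted p = 0.403). The dimmer probes gave 1.59 and 1.98. Within slide 1 the 4 DM probes exceeded WT 1 by 1.01 to 1.29.

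The chains of DO, which restrains DM, had differences of opposite sign. SLA-DOA gave 2.40, 1.73 and 1.31 on WT 1, WT 2 and WT 3 and 3.71 on KO. KO was far above WT on this probe and on the other SLA-DOA probe. Its distance from the WT mean was 1.89 (standard error 0.52), or 3.71-fold (limma, adjusted p = 0.413), and the other probe gave 1.95. SLA-DOB gave -0.88, -1.28 and -1.79 on WT 1, WT 2 and WT 3 and -1.83 on KO. KO was the lowest array, close to WT 3 and further from WT 1. KO differed from the WT mean by -0.51 (standard error 0.46, limma adjusted p = 0.676), and the other probe gave -0.53 (limma, adjusted p = 0.590). The SLA-DOB difference depended on the processing, at -0.30 without WT 1 and -0.27 with each array centred on its median. Within slide 1 the SLA-DOB differences were -0.95 and -0.74, and those of SLA-DOA were 1.31 and 1.37. The SLA-DOB probes were dim, with a processed signal of 125 to 348 over the arrays, but well above background on all 4.

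**Figure D2:**
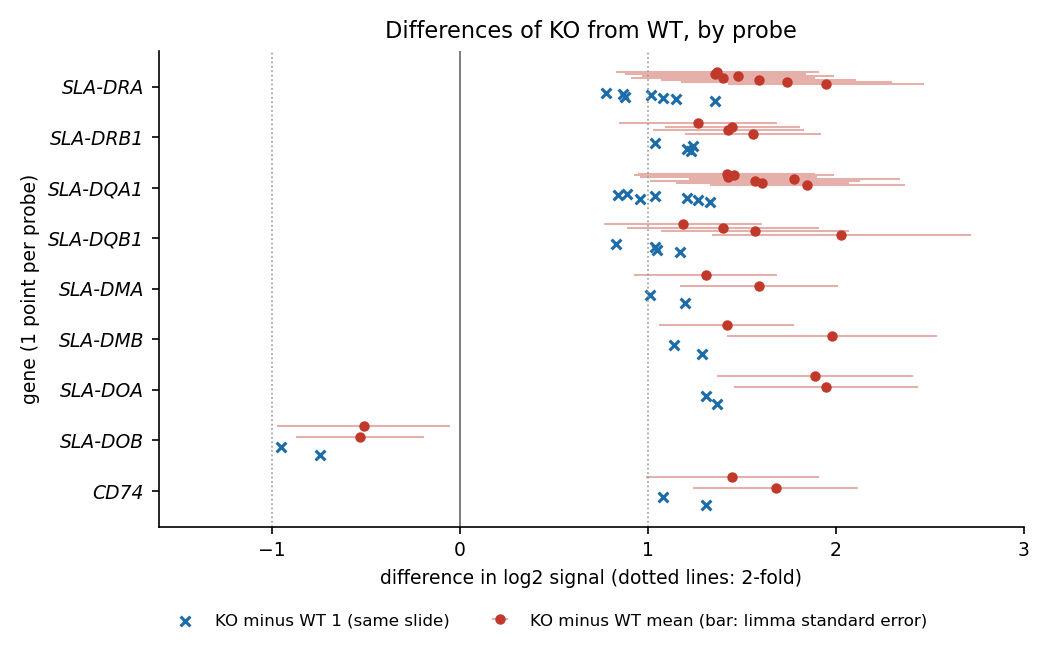
Difference in log2 signal of KO from the WT mean (circles, bars are limma standard errors) and from WT 1 on the same slide (crosses), for each of the 32 probes by gene. The 30 probes of 8 genes lie between 1.19 and 2.03 against the WT mean and between 0.78 and 1.37 against WT 1, and the 2 SLA-DOB probes lie below 0.

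Within slide 1, KO was above WT 1 on the same 30 probes, with 48.2% of all probes tested, and at least 2-fold above it on 23 of the 32, with 7.94% of all probes. The median difference over the 9 genes, each by its brightest probe, was 1.37 against the WT mean and 1.01 against WT 1. Over all probes tested these medians were -0.11 and -0.03. The WT arrays were not alike either. WT 3 was the lowest WT array on 30 of 32 member probes, while it was so on 29.0% of all probes tested, and WT 1 was the highest WT array on 31. The median over the 9 genes was 0.88 higher on WT 1 than on WT 3, with 13 of 32 probes at least 2-fold apart, and 0.50 higher on WT 2 than on WT 3, where both arrays shared slide 2. The distance from WT 1 to KO, 1.01, was within slide 1. It was only a little above the 0.88 from WT 3 to WT 1, a pair on different slides. The 0.50 between WT 2 and WT 3, within slide 2, was further below it. The median WT SD was 0.50 over member probes and 0.33 over all probes tested.

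Most members sat among the brightest probes. Of the 32, 28 belonged to the brightest 10% of all probes tested, ranked by the midpoint between KO and the average of WT. In that 10%, 12.6% of probes were at least 2-fold higher on KO than in WT, 45.5% had KO above every WT array and 7.74% were at least 2-fold above WT 1, a background chosen after the values had been seen. The processed KO signal of the 30 higher probes ran from 8216 to 325339. Among them, brighter probes gave smaller differences, with a median of 1.43 in the 15 brighter and 1.61 in the 15 dimmer probes. Pearson's r between difference and brightness was -0.74 over these 30 probes, which share arrays and often a gene. For KO minus WT 1 it was -0.78, and for WT 1 minus WT 3 it was -0.12. The probes of SLA-DRA show it within 1 gene, with 1.37 on the brightest and 1.95 on the dimmest.

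**Figure D3:**
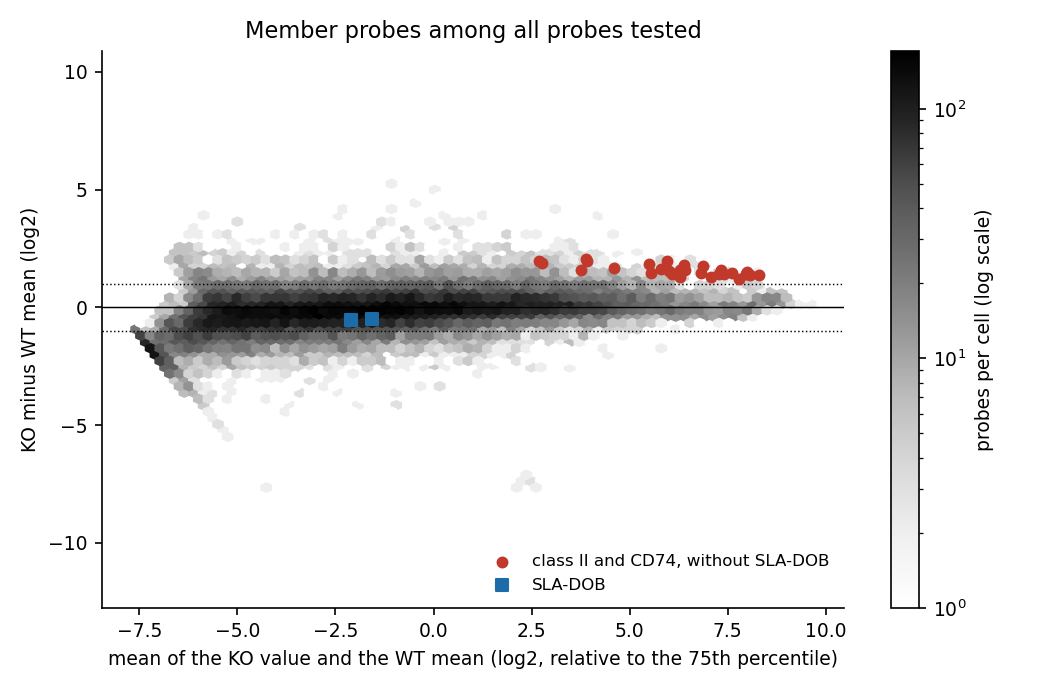
KO minus WT mean (y axis, log2) against the midpoint of KO and the WT average (x axis, log2) for all 33464 probes tested in grey, darker where more probes fall. The 30 member probes other than SLA-DOB (red) lie above the upper dotted line of 2-fold at the bright end, and the 2 SLA-DOB probes (blue) lie below 0 near the middle of the range.

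Ratios between members within an array do not depend on how the array was scaled by a constant, so 6 pairs were compared. The log2 ratio of SLA-DOB to SLA-DMB was -6.52, -6.67 and -6.84 on WT 1, WT 2 and WT 3 and -8.61 on KO. KO was far outside the narrow WT range, by -1.94 from a WT mean of -6.68 ± 0.16 (SD, n = 3). The ratio of SLA-DOA to SLA-DMA was -3.52, -3.97, -3.96 and -3.23 on the same arrays, so KO was above WT by 0.59. The larger part of the SLA-DOB to SLA-DMB difference was that of SLA-DMB, 1.42 from the WT mean, while SLA-DOB differed by -0.51. The DO chains were set over different DM chains. By these brightest probes, the DO chains were outside the WT range relative to DM in opposite directions, a description without a test. For SLA-DOA this varies with the DM probe. The dimmer SLA-DMB and SLA-DMA probes differed from WT by 1.98 and 1.59, and the SLA-DOA probes by 1.89 and 1.95. With the mean over all probes of a gene, the SLA-DOA to SLA-DMA difference was 0.48. For 3 pairs KO lay within the WT range. For SLA-DQA1 to SLA-DRA the difference was 0.05, for SLA-DQB1 to SLA-DRB1 -0.08 and for CD74 to SLA-DRA 0.08, with WT SDs of 0.14, 0.15 and 0.20. SLA-DMA to SLA-DMB was lower on KO by a small amount, -0.12 with a WT SD of 0.05, and by -0.06 after normexp background correction.

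**Figure D4:**
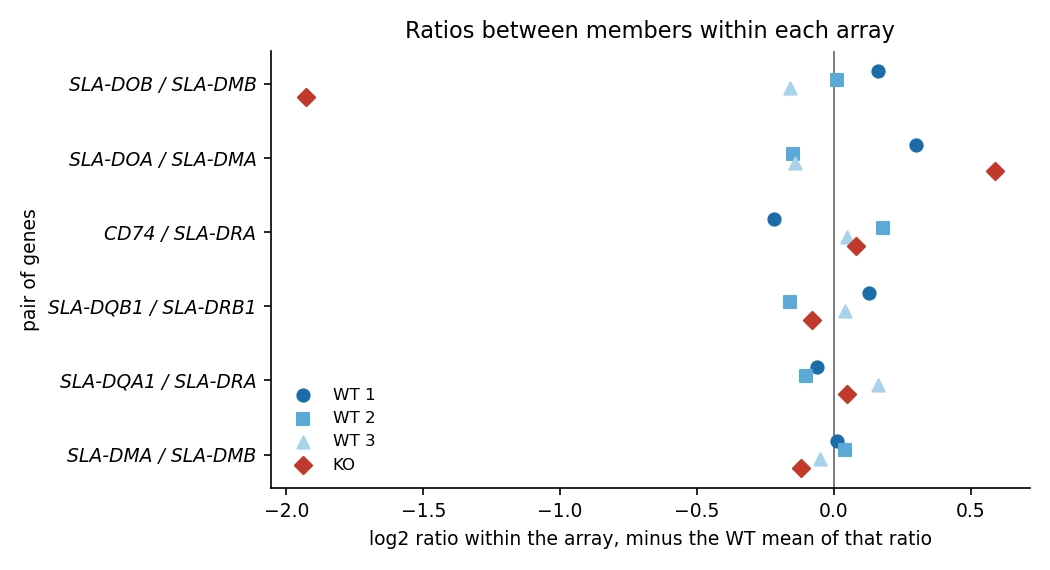
Log2 ratio of the brightest probes of 2 members within each array, minus the WT mean of that ratio (x axis), for the 6 pairs (y axis). Each point is 1 array. KO lies at -1.94 for SLA-DOB to SLA-DMB and 0.59 for SLA-DOA to SLA-DMA, and within the WT points for 3 pairs.

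The class II genes form a cluster in the Sscrofa11.1 assembly, used here for order only, with SLA-DRA at one end and SLA-DOA at the other. The stretch holds the pseudogenes SLA-DRB4, SLA-DRB5, SLA-DQB2 and SLA-DYB as well, and whether the probes tell such relatives apart could not be read from the files. Between SLA-DOB and SLA-DMB lie 5 measured genes that are no members. The peptide transporter gene TAP1 differed by 2.57 and the immunoproteasome genes PSMB9 and PSMB8 by 1.69 and 1.15, with KO above every WT array. BRD2, a chromatin reader gene, differed by 0.07, and TAP2 by -0.34, both within the WT range. The second TAP2 probe gave 1.90, so its probes disagreed. Adjusted limma p for the 5 genes lay between 0.441 and 0.940.

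The other genes of the class II pathway were taken from lists, each gene by its brightest probe. Beside them, KO was above every WT array for 38.2% of the 2742 named genes tested and below every WT array for 24.1%, while 14.0% were at least 2-fold higher and 11.9% at least 2-fold lower. In the transcription list only 2 of 16 genes were measured, and CIITA, RFX5 and IRF8 were not analysed here. SPI1, which encodes the myeloid and B cell factor PU.1, gave -1.80, -2.39 and -2.28 on WT 1, WT 2 and WT 3 and -0.71 on KO, a difference of 1.45 (limma, adjusted p = 0.406). NFYB, a subunit of the factor that binds the CCAAT box of class II promoters, differed by 0.06 and was the other gene of the list.

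Antigen processing genes showed the same direction as the class II genes. All 9 measured of 20 had KO above every WT array, 7 were at least 2-fold higher, 0 passed the limma threshold, and the median was 1.30, or 1.00 against WT 1. IFI30, the thiol reductase that unfolds antigens in the endosome, gave 4.36, 4.09 and 3.67 on WT 1, WT 2 and WT 3 and 5.59 on KO. Its difference was 1.55 (standard error 0.39, limma adjusted p = 0.403), close to those of the class II chains. CTSZ, a lysosomal cathepsin, differed by 1.64, LAMP2, a lysosomal membrane protein gene, by 1.68, and TAP1 by 2.57 (limma, adjusted p of 0.413, 0.430 and 0.441). TAP1, the peptide transporter gene of the MHC class I list below, was counted in this list too, so the lists overlap. Its difference was the largest of the antigen processing list. CTSS, the cathepsin that trims the invariant chain, was not analysed here.

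Among ligands and costimulators, 10 of 11 measured genes had a higher value on KO, 9 were at least 2-fold higher, 9 had KO above every WT array and 1 below, with 0 past the limma threshold. The median was 1.61, or 0.93 against WT 1. CD40, the receptor through which T cells license presenting cells, varied little in WT (SD 0.12, n = 3), with 4.93, 4.71 and 4.88 against 6.50 on KO. Its difference was 1.66 (standard error 0.28, limma adjusted p = 0.333). CD86, a ligand of CD28, differed by 1.31 (limma, adjusted p = 0.411), and CD4, which binds class II, by 1.74 (limma, adjusted p = 0.430). The genes of the inhibitory ligands, CD274 and PDCD1LG2, differed by 3.13 and 3.43, and by 2.12 and 2.28 against WT 1 (limma, adjusted p of 0.410 and 0.407).

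The interferon gamma list had 13 measured genes of 17, and KO lay above every WT array on all 13, with 10 at least 2-fold higher, a median of 1.97 and 0 past the limma threshold. IFNG itself gave -1.81, -3.36 and -4.64 on WT 1, WT 2 and WT 3 and 0.38 on KO. The order of the 4 arrays, KO highest and WT 3 lowest, was that of SLA-DRA, SLA-DQA1, SLA-DQB1, SLA-DMA, SLA-DMB, SLA-DOA and CD74. This holds for their brightest probes, while another SLA-DQA1 probe and the other SLA-DOA probe had WT 2 lowest. Genes of other lists, such as B2M and CD8A, had the same order, so it was not particular to IFNG and the members. KO was above every WT array on 27.1% of all probes tested, and WT 3 was the lowest WT array on 29.0%. The share of all probes with the full order was not counted. The IFNG difference was 3.65 (standard error 1.20, limma adjusted p = 0.432). IRF1, an interferon-induced factor that acts on the CIITA gene, gave 3.78, 3.20 and 2.97 on WT 1, WT 2 and WT 3 and 5.28 on KO. KO was again clear of every WT array. Among the further genes, IFNGR2 differed by 1.84, SOCS3 by 1.32, GBP1 by 2.94, GBP2 by 3.08, CXCL9 by 5.44 and CXCL10 by 4.22. Adjusted limma p over the 13 genes lay at or above 0.375.

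The MHC class I list, which serves to compare the other arm of antigen presentation, had 13 measured genes of 18. KO was above every WT array on 11, 7 were at least 2-fold higher, and the median was 1.05, or 0.49 against WT 1. The class II medians were 1.37 and 1.01, and the difference between the lists was not tested. PSMB10 differed by 1.27 and TAP1 by 2.57, with 0 of the 13 past the limma threshold.

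Marker genes of the cell types that carry class II differed in direction. In bulk tissue, fewer cells of a type cannot be told apart from less RNA per cell. B cell genes had 4 measured of 18. MS4A1, which encodes CD20, gave 1.37, 0.37 and 1.00 on WT 1, WT 2 and WT 3 and -4.00 on KO, and CD79A, a chain of the B cell receptor complex, gave 0.80, -0.03, -0.13 and -3.90 on the same arrays. KO was far below WT on both, although each was still well above background there. The differences were -4.92 and -4.11 (limma, adjusted p of 0.285 and 0.305). CD72, of the same list, was higher on KO by 1.49 and was picked out after its values were seen. The summed signal of the 4 genes, in units of the 75th percentile, ranged from 4.05 to 8.59 in WT and was 5.24 on KO. The part of B cell content in the class II values was not tested.

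Macrophage and monocyte genes had 13 measured of 18, of which 13 were higher on KO, 8 at least 2-fold, and 11 had KO above every WT array, with 0 past the limma threshold. The median was 1.90, or 1.01 against WT 1, and the summed signal ranged from 620 to 1055 in WT and was 1704 on KO. The macrophage list median was 2.75 without WT 1, 3.07 with the mean over all probes of a gene and 1.40 after normexp background correction. CD14, the lipopolysaccharide co-receptor, gave 0.52, 0.21 and 0.24 on WT 1, WT 2 and WT 3 and 3.41 on KO, a difference of 3.09 (limma, adjusted p = 0.281). CD163, the haemoglobin scavenger receptor, gave 3.46, 4.81, 4.65 and 7.48, a difference of 3.17 (limma, adjusted p = 0.387). In contrast to the class II chains, WT 1 was the lowest array for CD163. MRC1 differed by 3.26, LYZ by 4.00, FCGR1A by 3.90 and SIRPA by 1.33. The part of macrophage content in the class II values was not tested.

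Dendritic cell genes had 4 measured of 18, with a median of 0.73 and a summed signal of 19.0 to 37.4 in WT and 64.8 on KO, a sum set mostly by the FSCN1 probe. FSCN1, which bundles actin in mature dendritic cells, differed by 1.45 and the Langerhans cell receptor gene CD207 by 1.43, while XCR1 and CCR7, the other measured genes, were within the WT range. T cell genes had 8 measured of 18, with 5 higher and 3 lower, a median of 0.16, and a summed signal of 24.3 to 75.2 in WT and 38.4 on KO. The spleen list had a median of 0.42, with 5 of 8 genes above every WT array and 2 below, and it ranged from 0.19 under quantile normalisation to 0.69 with the mean over all probes of a gene. None of these 3 lists had a gene past the limma threshold, a count of 0.

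**Figure D5:**
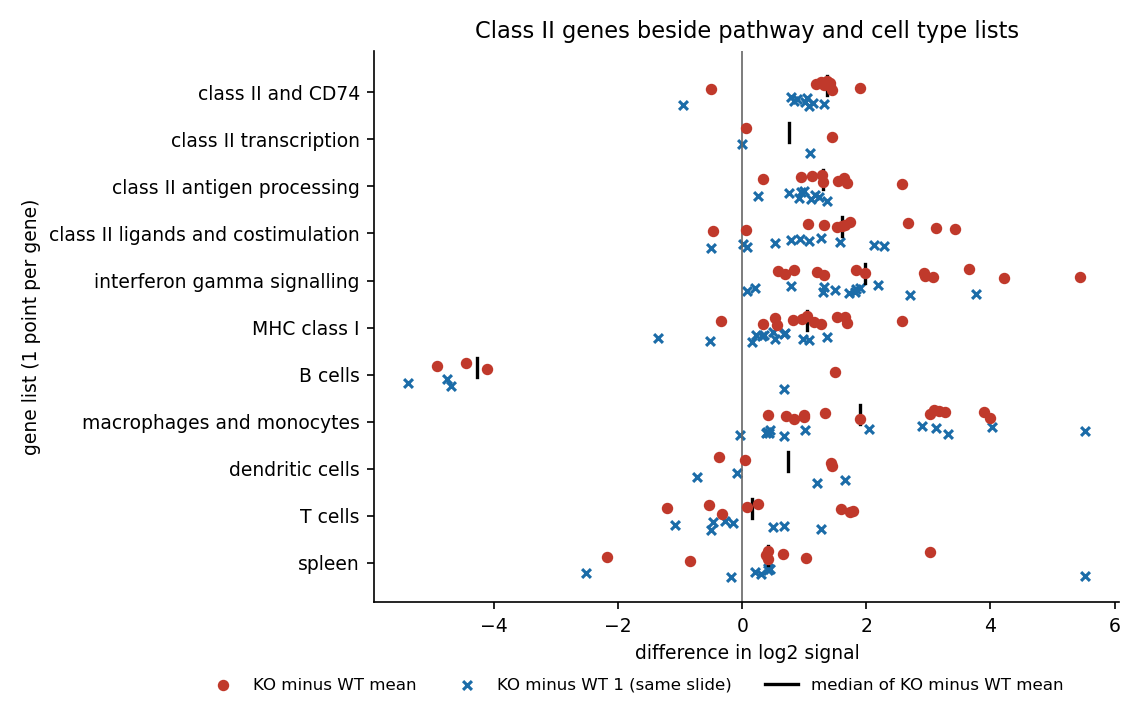
Difference in log2 signal (x axis) of KO from the WT mean (circles) and from WT 1 on the same slide (crosses) for the 9 members and for each measured gene of the 10 lists (y axis), each by its brightest probe, with a black line at the median of KO minus the WT mean. The class II and CD74 median is 1.37 and the medians of antigen processing and interferon gamma signalling are 1.30 and 1.97, while 3 of 4 B cell genes lie below -4.

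The pattern over the 4 arrays was also used to look for genes like the members. The mean centred profile of the 9 genes was 0.11, -0.26 and -0.75 on WT 1, WT 2 and WT 3 and 0.90 on KO. Among the members, SLA-DQB1 was nearest to it, at a root mean square distance of 0.0308, and SLA-DOB farthest, at 0.742. The members make up this profile, so their nearness is partly built in. By distance, SLA-DQB1 ranked 1 among the named genes, SLA-DMA 15, CD74 29, SLA-DOA 337 and SLA-DOB 1682. Genes that are no members thus lay nearer than most members. Of the named genes that are no members, the nearest over these 4 arrays were TMEM173, GRB2, PSME2, LGALS9 and ENTPD1, at 0.0493 to 0.0639. TMEM173 gave 0.20, -0.28 and -0.65 on WT 1, WT 2 and WT 3 and 0.95 on KO, and PSME2 gave 5.53, 5.04, 4.53 and 6.23. The differences of the 5 genes from WT lay between 1.09 and 1.19, with adjusted limma p between 0.450 and 0.476. With 4 arrays, such likeness is a description.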

How the data were processed

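Per the labels, the authors labelled total RNA of each spleen with Cy3 and hybridised it to its own array. The deposited intensities were extracted with Feature Extraction 11.0.1.1 and background-corrected by it. Spots with outlier flags were left out, the log2 processed signal was centred on the 75th percentile of its array, and replicate spots were averaged per probe. Probes well above background on at least 1 array were tested, 33464 of 43575. Probes were named by unversioned RefSeq transcript (Sscrofa11.1), which named 15.3% of probes. Differences between KO and WT were tested two-sided with limma 3.58.1 (R 4.3.3), with Benjamini-Hochberg adjustment over all probes tested. The fit was tested on simulated data. It has 2 residual degrees of freedom, all from WT, and KO was assumed to vary like WT. The number of arrays limits the precision. The log2 values of the series table deposited by the authors had equal quantiles in every array and served as an alternative, beside other scalings, filters, the slide as a block, the methods' t-test and left-out replicates. For normexp with an offset of 50, the median spot signal was used, as in the files. Of the lists, a set of genes was named whatever its values (SPI1, IFI30, CD4, CD86, IFNG, IRF1, MS4A1, CD79A, CD163 and CD14 where measured), plus up to 6 genes per list with the largest differences, at least 2-fold outside the WT range, and 5 genes nearest to the members' profile. The members and lists were chosen with earlier results of these data known. Python 3.11.15, pandas 2.3.3 and numpy 2.4.6 read the files. Some genes that this rule names are not reported here. Sequences of probes were not used here.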

Additional observations from a re-analysis of the deposited data

How the results depend on the processing

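The count over the arrays of slide 1 alone was chosen after seeing the data and gave 30 probes with KO above WT 1. The difference of each of the 9 genes kept its direction and stayed short of the adjusted limma threshold under all 117 combinations of gene and alternative. The median over the 9 genes lay between 1.01 (slide as a block) and 1.61 (median of each array), and without single WT replicates between 1.13 and 1.56. Slide 2 held only WT arrays, so the block estimate repeats the difference of KO from WT 1. The methods' t-test called 1 member probe before adjustment, of SLA-DRB1, and 0 after Benjamini-Hochberg or Bonferroni adjustment. The number of the 6 within-array ratios with KO outside the WT range was 5 under quantile normalisation, 5 in the deposited table and 2 after normexp, cause not tested, and between 3 and 5 without single WT replicates, where a narrower WT range follows from fewer arrays. The log2 ratio difference of CD74 to SLA-DRA was between -0.03 (without WT replicate 1) and 0.16 without single WT replicates, that of SLA-DQB1 to SLA-DRB1 was 0.12 with the mean over all probes of a gene, and that of SLA-DQA1 to SLA-DRA lay between -0.0042 (without WT replicate 2) and 0.13. The difference of SLA-DMA to SLA-DMB was -0.06 after normexp and -0.26 with the mean over probes. The B cell median was -4.28, and -2.84 after normexp. The T cell median was -0.21 with the slide as a block and between -0.29 (without WT replicate 3) and 0.42 without single WT replicates. The spleen median was 0.19 under quantile normalisation and in the deposited table, and 0.65 under the median shift. The median over all probes tested was 0.13 under the median shift, -0.22 with the percentile taken over probes detected on every array and -0.21 without a filter. No paired analysis was possible, because the design held a single KO array and the labels match it to no WT array. The block used here was the slide. Precision is limited by the single KO array, and SLA-DOB had the lowest signal over background of the members.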
